A study of Mus musculus with 12 samples.

Results

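Simple repeats with units of 4 or 5 bases are tandem arrays in which a motif of that length follows itself many times. They were taken from tables of read counts per repeat name as every row of the class Simple_repeat whose motif, read from the name, has 4 or 5 letters. This gave 1157 of 18538 repeat names, 255 with a 4-base and 902 with a 5-base unit. The RNA came from 2-cell mouse embryos of the C57BL/6 strain, 1.5 days after fertilization, with 6 libraries per genotype. In the WT group (m+/p-), oocytes with a working Kdm4a allele were fertilized with Kdm4a knockout sperm. In the KO group (m-/p-), Kdm4a knockout oocytes met the same kind of sperm, so neither parent gave a working allele. Both groups thus lacked the paternal allele, and the contrast is of the maternal allele together with what the oocyte had stored. Kdm4a encodes an enzyme that strips methyl groups from histone H3. Embryos went into individual tubes, but the labels state neither the number of embryos per library nor the number of females. The p-values therefore measure the spread between these libraries, and any other difference between the 2 sets of oocytes cannot be told apart from genotype.

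Arrays of this kind, called microsatellites or short tandem repeats, grow and shrink when DNA polymerase slips on them during replication. Most have no promoter of their own known to drive them, and their sequence enters RNA mainly as part of introns, untranslated regions or transcripts between genes. Units of A with a single G or C are known to arise in the A-rich tails of SINE and LINE elements. GATA and GACA arrays are known from the sex chromosomes of snakes and mice. In the mouse embryo, the 2-cell stage is when the zygote's own genome is first broadly transcribed.

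An array may be read from any base of its unit and from either strand, so that several names stand for 1 motif. All rotations and reverse complements of a motif were joined into a motif group named after its first member in alphabetical order. The 1157 names fell into 143 such groups, 39 of 4-base and 104 of 5-base motifs, with 1 to 10 names each. The names on which the results turn are spelled out below as 3 copies of the unit, with the first unit in capitals. GATT is the reverse complement of AATC, the same array read from the other strand, and both belong to the group that rose in KO. CTCC is shown for the smallest p among the names not called, AAAC for the highest level, and AGAT because GATA is a rotation of it.
Array of the unit AATC: AATCaatcaatc
Array of the unit GATT: GATTgattgatt
Array of the unit CTCC: CTCCctccctcc
Array of the unit AAAC: AAACaaacaaac
Array of the unit AGAT: AGATagatagat

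Of the 1157 names, 17 hold a shorter unit inside the written one, such as ACAC, and form 8 groups of their own. They were kept as the rule demands. No read was counted for 96 names in any library. After removal of rarely counted names, 538 were tested, 217 with a 4-base and 321 with a 5-base unit, and these held 99.4% of the counts of the class. A name that is high in 1 genotype only can pass this removal through that genotype, so counts over the 538 describe the tested names and not all 1157. Library totals ran from 7952526 to 18902360 counts, of which 185163 to 447155 belonged to 4- and 5-base units. The tables hold repeats and no genes, so the Kdm4a transcript cannot check the genotype labels. MERVL-int, the endogenous retrovirus that marks 2-cell embryos, was counted in every library, at 45234 to 91277 normalised CPM in WT and 19687 to 39592 in KO (CPM is counts scaled to a common library size). This marker was itself lower in KO (log2 ratio -1.04, edgeR adjusted p = 0.0159), so it cannot show that both groups were equally far into that stage.

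The counts were concentrated in A-rich 4-base motifs. The 10 most counted names held 27.5% of the counts of the class, and the 10 most counted motif groups held 74.8%. Units of 4 bases held 71.6% of the counts although they made up 255 of the 1157 names. The group with the most counts was AAAC, followed by AAAG, AAAAC and AAAT. A count per name also depends on how many bases of the genome carry that name, a length not used here, so no order of levels per base follows from it.

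The first comparison asked how much of the repeat RNA these arrays made up in each genotype. In WT, 4- and 5-base units took 1.69% to 2.06% of all repeat counts with a median of 1.95%. In KO they took 2.23% to 2.81% with a median of 2.48%. No WT library reached the lowest KO library. The means were 1.93% ± 0.133 for WT and 2.51% ± 0.222 for KO (SD, 6 libraries each), a ratio of 1.30. The share of 4-base units was 1.37% ± 0.106 in WT and 1.81% ± 0.166 in KO, and that of 5-base units was 0.560% ± 0.0282 and 0.701% ± 0.0588. Neither pair of groups overlapped. No p is attached to these sums, because the class was chosen with results of these data known.

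**Figure D1:**
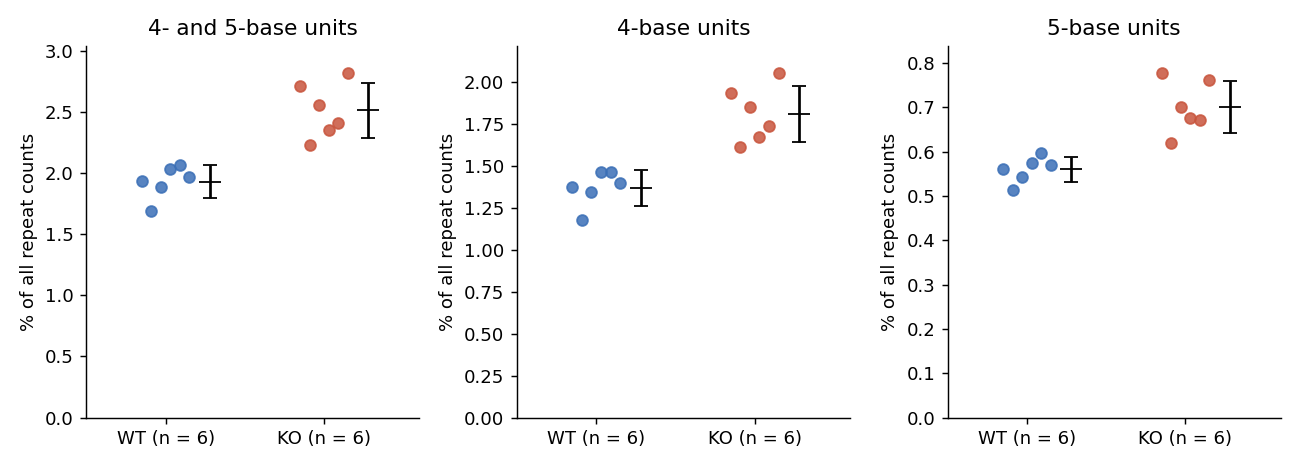
Share of all repeat counts (percent, vertical axis from 0) taken by simple repeats with 4- and 5-base units together, with 4-base units and with 5-base units, in WT and KO. Each point is 1 library (n = 6 per group), and the bar beside them gives the mean and SD. All KO points lie above all WT points in each panel, with means of 1.93% and 2.51% in the left one.

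A share depends on what else is in the total. The LTR class, made up of retroviral elements flanked by long terminal repeats, was the largest part of the counts, with 55.9% ± 2.05 in WT and 47.7% ± 2.88 in KO. Among counts outside that class, 4- and 5-base units took 4.37% ± 0.108 in WT and 4.80% ± 0.181 in KO, a ratio of 1.10, and the groups again did not overlap. This held for 4-base units alone (3.11% ± 0.104 and 3.46% ± 0.137), while 5-base units overlapped there (1.27% ± 0.0190 and 1.34% ± 0.0571, a ratio of 1.05). Among the counts of simple repeats they took 30.8% ± 1.07 in WT and 32.3% ± 1.04 in KO, where the groups overlapped. SINE elements, whose tails carry A-rich units, stood at 13.9% ± 0.958 of all counts in WT and 18.8% ± 2.48 in KO, and their part in the share of the 4- and 5-base units was not tested. The other unit lengths also took a larger share of all counts in KO. Units of 1 to 3 bases took 3.14% ± 0.176 in WT and 3.82% ± 0.340 in KO, a ratio of 1.22. Units of 6 or more bases took 1.20% ± 0.0968 and 1.44% ± 0.136, a ratio of 1.20, and in both classes the genotypes overlapped. All simple repeats together had a ratio of 1.24 with no overlap. Units of 1 to 3 bases took 7.13% ± 0.313 of the counts outside the LTR class in WT and 7.30% ± 0.379 in KO, and units of 6 or more bases took 2.71% ± 0.158 and 2.75% ± 0.212. Whether the 3 length classes differ from each other in their KO to WT ratio was not tested.

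Within the class, the split between short and long units moved little. Units of 4 bases held 71.0% ± 0.738 of the counts of the class in WT and 72.1% ± 0.648 in KO. All 6 KO libraries lay above the WT median, and 4 of them above the highest WT library. This split needs no scaling, since both parts come from the same library.

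Base composition showed a further pattern within the class. Units with 3 G or C bases held 7.43% ± 0.475 of its counts in WT and 6.41% ± 0.413 in KO, and 5 of 6 KO libraries lay below the lowest WT library. Units with 4 G or C bases held 1.86% ± 0.314 in WT and 1.46% ± 0.255 in KO, with 4 KO libraries below the lowest of WT. Units with no G or C held 13.5% ± 0.646 in WT and 13.9% ± 1.18 in KO, those with 1 held 58.4% ± 1.22 and 58.6% ± 0.642, and those with 2 held 18.5% ± 0.488 and 19.4% ± 1.11. The few counts of units with 5 G or C bases, 0.229% ± 0.116 in WT and 0.219% ± 0.0784 in KO, varied most among libraries of 1 group. These shares are relative to the class, whose own share of all counts was larger in KO. Of all counts, units with 3 G or C bases took 0.143% ± 0.0127 in WT and 0.161% ± 0.0205 in KO. Units with 4 took 0.0360% ± 0.00648 and 0.0368% ± 0.00831 of all counts, and the genotypes overlapped in both.

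A single name carried much of the difference in units with 3 G or C bases. CTCC held 35.4% of that composition class, and without it, a choice made after its values were seen, the share was 4.57% ± 0.346 in WT and 4.26% ± 0.377 in KO. The groups overlapped with and without it, now with 3 KO libraries below the lowest WT library.

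**Figure D2:**
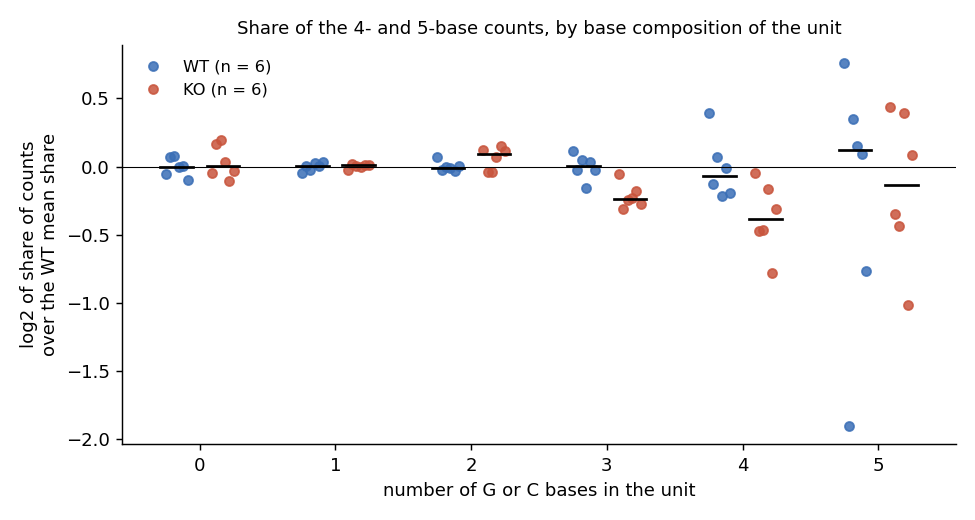
Share of the counts of all 4- and 5-base units held by units with 0 to 5 G or C bases (horizontal axis), as log2 of each library's share over the mean WT share (vertical axis). Points are single libraries (6 WT, 6 KO) and short bars are medians. All KO points and some WT points lie below 0 for units with 3 or 4 G or C bases, and the spread is widest for 5.

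The second comparison tested each name. Among the 538 tested names, 1 fell and 0 rose in KO (edgeR quasi-likelihood test, Benjamini-Hochberg over all 3312 tested repeat rows, adjusted p under 0.05). Over all 3312 rows, 1.27% were called lower and 0.151% higher. The lower calls of the class lie below that background. At so low a share of higher calls, 0 of 538 cannot be told apart from it. DESeq2 gave an adjusted p to 317 of the 538 and called 7 higher and 3 lower, where it called 2.07% and 6.27% of all 2027 rows with an adjusted p. With limma-voom and its quality weights, 1 name was higher and 2 were lower, beside 0.242% and 1.87% of all rows. The fall was lost in edgeR without any 1 of 7 libraries (WT replicates 1, 3 and 6 and KO replicates 1, 3, 5 and 6). At an unadjusted p under 0.05, edgeR found 33 names higher and 8 lower, where the shares over all rows were 5.50% and 7.91%.

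The log2 ratios of KO over WT of the tested names had a median of 0.09 and lay between -0.13 and 0.28 for the middle of the distribution (first to last quartile). Of the 538, 330 were positive and 208 negative. Over all tested rows the median was 0.01, with 1696 positive and 1616 negative. The 4-base names had a median of 0.13 (160 positive, 57 negative) and the 5-base names one of 0.03 (170 and 151). Units of 1 to 3 bases had a median of -0.06 over 80 tested names, and units of 6 or more bases one of -0.02 over 1467. These medians were not tested against each other.

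Those values are relative to the typical repeat, since the scaling (TMM, which takes most rows as unchanged) sets it near 0. Scaling by total counts moved the median of all rows to 0.32 and that of the class to 0.39. It also turned the calls in the class to 78 higher and 1 lower, where 10.8% of all rows were called higher and 0.996% lower.

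**Figure D3:**
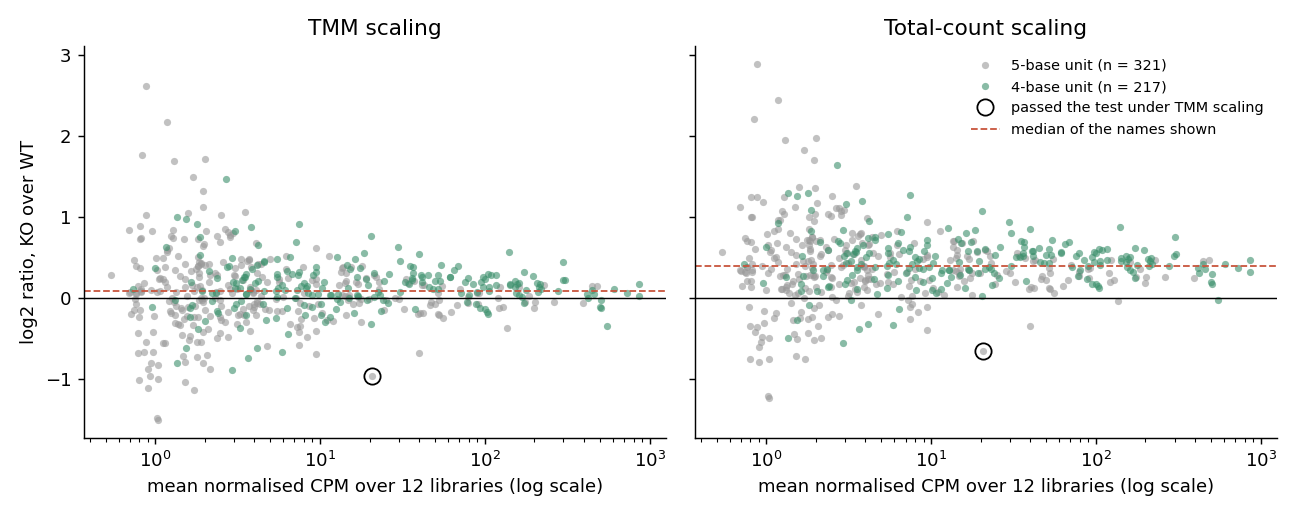
Log2 ratio of KO over WT (vertical axis) against mean normalised CPM over 12 libraries (horizontal axis, log scale) for the 538 tested names, under TMM scaling (left) and total-count scaling (right). Green points are 4-base and grey points 5-base units, the ring marks the name that passed the test under TMM scaling, and the dashed line is the median of the names shown, 0.09 on the left and 0.39 on the right.

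Of the 538 names, 3 had groups that did not overlap. In 1 of them KO lay below WT, a pattern seen in 1.39% of all tested rows. CAGTT and GGAAG, chosen after their values were seen, had all KO libraries above all WT libraries, a pattern seen in 0.725% of rows. CAGTT averaged 0.245 ± 0.309 normalised CPM in WT against 1.52 ± 0.572 in KO (SD, 6 libraries each, edgeR adjusted p = 0.109), on 155 counts in all libraries together. GGAAG stood at 2.11 ± 0.369 and 3.55 ± 0.630 (edgeR adjusted p = 0.173). Both are rare, and edgeR called neither. CAGTT may have passed the removal of rarely counted names through its KO libraries alone. Its lack of overlap is therefore no separate support for a rise.

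The rule also took the 5 names with the smallest p among those not called. CTCC averaged 614 ± 55.0 normalised CPM in WT against 483 ± 68.9 in KO (SD, 6 libraries each), a log2 ratio of -0.35 ± 0.10 (SE, edgeR adjusted p = 0.0862). The WT median exceeded all 6 KO libraries, of which 4 lay below the lowest WT library. Under total-count scaling its log2 ratio was -0.03. GATT had a log2 ratio of 0.77 (15.1 and 25.6 normalised CPM, edgeR adjusted p = 0.1003), AATC of 0.56 (113 and 167, adjusted p = 0.1003) and AATA of 0.43 (255 and 345, adjusted p = 0.103). Total-count scaling called all 3 higher, with 1.07 for GATT (edgeR adjusted p = 0.0115), 0.87 for AATC (0.00739) and 0.75 for AATA (0.00753).

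GATA and GACA, the tandem motifs known from sex chromosomes, were looked at whatever their values. GATA ran from 47.3 to 71.9 normalised CPM in WT with a median of 58.4, and from 66.2 to 86.1 in KO with a median of 80.0. The groups overlapped, and 4 KO libraries lay above the highest of WT. The log2 ratio was 0.40 ± 0.11 (SE, edgeR adjusted p = 0.1003), and under total-count scaling it was 0.69 and passed (edgeR adjusted p = 0.00959). GACA averaged 70.3 ± 10.02 in WT against 73.2 ± 4.97 in KO (SD, 6 libraries each), a log2 ratio of 0.06 (edgeR adjusted p = 0.885). The 8 names of the GATA motif, whose group is called AGAT, did not share 1 sign: CTAT had a log2 ratio of -0.14 and the other 7 were positive.

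Of the 10 most abundant single names, CTCC, described above, had the ratio farthest from 0 (-0.35). AAAC averaged 862 ± 70.6 normalised CPM in WT against 870 ± 36.9 in KO (SD, 6 libraries each), with a log2 ratio of 0.01. AGAT stood at 806 ± 108 and 907 ± 184, with 0.17. In the other 7 of the 10 the log2 ratios ran from -0.13 for TTCT to 0.14 for the 5-base name AAAAC, with standard errors from 0.06 to 0.13. None of the 10 passed (edgeR adjusted p = 0.0862 for CTCC and from 0.445 to 0.970 for the other 9).

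The third comparison used the motif groups. Summing over rotations and strands gives more counts per item, and 118 of the 143 groups were tested, 36 of 4-base and 82 of 5-base motifs, within a table of 2892 rows. The AATC group rose, and 1 group fell (edgeR, Benjamini-Hochberg over the 2892 rows). Over that table, 0.277% of rows were called higher and 1.87% lower, to be read beside 1 of 118 groups in each direction. No group was called lower by edgeR without any 1 of 11 libraries (all but KO replicate 5), nor under total-count scaling. DESeq2, which gave an adjusted p to 96 groups, called 4 higher and 1 lower, beside 2.74% and 6.57% of the 1826 rows with one. With limma-voom and its quality weights, 2 groups were higher and 2 lower, beside 0.622% and 2.49% of rows. The 2 edgeR calls were among them both times. The groups had a median log2 ratio of 0.07, with 71 positive and 47 negative, beside 0.00 over all rows of the table.

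The AATC group ran from 168 to 236 normalised CPM in WT with a median of 194, and from 231 to 337 in KO with a median of 269. KO replicate 1, the lowest of its group, lay just under WT replicate 3, and the other 5 KO libraries lay above all WT libraries. The means were 197 ± 25.2 and 270 ± 37.0 (SD, n = 6), a log2 ratio of 0.46 ± 0.11 (SE, edgeR adjusted p = 0.0398). Under total-count scaling it was 0.77 (edgeR adjusted p = 0.00200). All 8 names of the group were tested and all had positive log2 ratios, from 0.03 for ATTG to 0.77 for GATT. The name AATC alone held 59.5% of the counts, and no single name passed.

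The call of the AATC group has a narrow margin. It was lost without any 1 of 9 libraries (all but WT replicate 3 and KO replicates 1 and 2), and the highest adjusted p of edgeR was 0.0995. It was also lost under RLE scaling (edgeR adjusted p = 0.0530) and with TMM on simple repeats only. The same was seen without a filter, and without both WT replicate 2 and KO replicate 5.

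**Figure D4:**
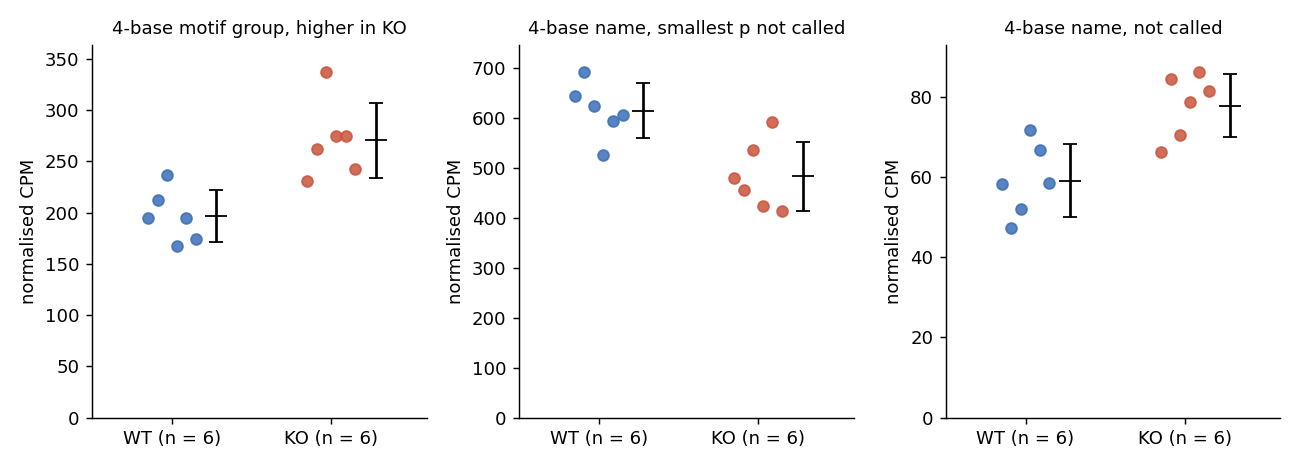
Normalised CPM (vertical axis from 0) in each library for the 4-base motif group that rose (AATC, left) and for the names CTCC (middle) and GATA (right), which edgeR did not call. Points are single libraries (n = 6 per group), and bars beside them give the mean and SD. In the left panel 5 of 6 KO points lie above all WT points, in the middle one 4 lie below all WT points, and in the right one 4 lie above them.

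Other motif groups had small p without passing. The ACCT group averaged 23.5 ± 2.90 normalised CPM in WT against 32.8 ± 3.38 in KO (SD, 6 libraries each), a log2 ratio of 0.48 (edgeR adjusted p = 0.0556). The AGGG group, in which CTCC held 73.3% of the counts, had a log2 ratio of -0.28 (815 and 671, edgeR adjusted p = 0.0779). ACAC, a group whose real unit is the pair AC, and ACAT had all KO libraries above all WT libraries. ACAT ran from 623 to 701 normalised CPM in WT and from 720 to 810 in KO, a log2 ratio of 0.20 ± 0.06 (SE, edgeR adjusted p = 0.0780). ACAC had a log2 ratio of 0.25 (269 and 320, edgeR adjusted p = 0.0780). Of the 118 tested groups, 2 had all KO libraries above WT and 1 below, beside 0.864% and 1.66% of all rows.

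Of the 10 groups with the most counts, AGGG (-0.28) and ACAT (0.20) are described above. AAAC averaged 3568 ± 157 normalised CPM in WT against 3684 ± 106 in KO (SD, 6 libraries each), a log2 ratio of 0.05 ± 0.05 (SE). AAAG stood at 2848 ± 147 and 2932 ± 214, with 0.04. AAAAC had 0.08, AAAT 0.16, AGAT 0.18, AAGG 0.20, ACAG 0.12 and AAAAG -0.05. None of the 10 passed (edgeR adjusted p from 0.145 to 0.863 for these 8). Total-count scaling called 10.4% of the rows of the table higher and 1.11% lower. Under it these 8 and ACAT passed as higher, with log2 ratios from 0.26 for AAAAG, whose sign turned, to 0.51 for AAGG. AGGG also changed sign, to 0.03, and did not pass (edgeR adjusted p = 0.849).

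Within the AAAC, AAAG and AAAAG groups, names written with T held more of the counts than those written with A. The A-rich names took 41.6% ± 2.18 of the counts of AAAC in WT and 42.0% ± 1.25 in KO, 35.8% ± 3.01 and 34.8% ± 2.96 of AAAG, and 24.7% ± 2.10 and 23.9% ± 1.89 of AAAAG (SD, n = 6). The genotypes overlapped in each. The reverse held in AATC, where names with more A than T took 69.1% ± 2.05 in WT and 72.0% ± 4.47 in KO. It rested on 1 name there, since the name AATC alone held 59.5% of that group's counts. The other such names held at most 4.36% each, and their reverse complements held 4.92% to 8.98% each. The reverse also held in ACAT, where names with more A than T took 56.1% ± 2.12 and 55.0% ± 2.00. In the AGAT group the names written with more purines took 69.5% ± 3.13 in WT and 70.3% ± 2.97 in KO. This too rested on 1 name, since the name AGAT alone held 53.4% of that group's counts. The other names with more purines held 4.34% to 7.41% each, and the reverse complements held 5.88% to 9.91% each. In AGGG the names with more purines took only 4.27% ± 0.638 and 5.53% ± 0.746, the rest being names such as CTCC and CCTC.

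Names of 1 motif did not always move together. Among the 65 motif groups with at least 4 tested names, 10 had only positive and 1 had only negative log2 ratios. The positive ones include the AATC group that rose, and also ACAT. The negative one was AGCCC, chosen after its values were seen, whose 5 tested names ran from -0.89 to -0.06. As a group, AGCCC averaged 10.1 ± 2.21 normalised CPM in WT against 8.07 ± 2.53 in KO (SD, 6 libraries each, edgeR adjusted p = 0.622).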

How the data were processed

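Total RNA of 12 libraries was made with a stranded low-input kit that depletes ribosomal RNA, per the labels' protocols. The submitters' processing notes name mm10, Trimmomatic 0.32 and edgeR without a role. What aligner, repeat annotation and counter were used was not given in the sources used here. Each deposited table holds estimated counts by repeat name, all of them whole (0 were not). Reads matching several names may have been divided among them.

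Groups and replicate numbers came from sample titles. EdgeR 4.0.16 in R 4.3.3 fitted all rows kept by filterByExpr (library sizes from all rows, TMM, quasi-likelihood F test with genotype as the only term, Benjamini-Hochberg, threshold 0.05). For motif groups, member rows were replaced by their sums. Standard errors came from the F statistic. DESeq2 1.42.0, limma 3.58.1, other scalings, filters, a replicate block, library size as covariate and removal of libraries were alternatives. The fit was tested on simulated counts. No replicate pair agreed within sampling noise (chi-square per degree of freedom from 25.0 to 144 over 30 pairs).

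Named items were those called, the 10 most abundant, those with the smallest p up to 6 in all, and GATA and GACA; a 5-base motif and its names are not reported here. Members, lists and this rule were chosen with earlier results of these data known. Counts carry no molecular identifiers, so reads are not independent molecules.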

Additional observations from a re-analysis of the deposited data

Results flagged for a closer look

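In groups of 6 libraries, a lowest or highest value was singled out where its gap to the next was too large a part of the range by Dixon's test. This held in 2 of 62 groups checked, and chance gives about 1 in 20. In the AAAAG group, the lowest KO library stood at 1105 (KO replicate 6, gap 0.633 of the range). In the ACAC group, the highest KO library stood at 356 (KO replicate 1, gap 0.723).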

How the results depend on the processing

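Among single names, the count called higher was 0 and the count called lower 1. Higher calls numbered 78 under total-count scaling, 7 with DESeq2 and 1 with limma-voom. Lower calls numbered 3 with DESeq2, 2 with limma-voom, 2 with library size as a covariate, and 0 without a filter or without both WT replicate 2 and KO replicate 5. With 1 library removed, higher calls stayed at 0 and lower calls were 0 or 1 (0 in 7 of 12 removals). Among motif groups, higher and lower calls of 1 each became 27 and 0 under total-count scaling, 3 and 0 with upper quartile scaling, 2 and 2 with limma-voom, and 0 and 0 under RLE, TMM on simple repeats only and no filter. DESeq2 gave 4 higher. Lower calls were 2 with the covariate, and higher calls 0 without both named libraries. With 1 library removed, higher and lower calls were 0 or 1 each (0 in 9 and 11 of 12 removals). Total-count scaling, which moved the median of all rows to 0.32, turned most negative ratios of the items named here positive: GTTT (0.29) and the AAAAG group (0.26), which then passed, and TTCT (0.17), AAAG (0.20) and the AGGG group (0.03), which did not. The cause of these shifts was not tested. The log2 ratio of the mean share in KO to that in WT was 0.38 of all counts, 0.13 of counts outside the LTR class and 0.071 of simple repeat counts, and ran from 0.34 to 0.41 without single libraries.

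With a replicate block, lower calls were 0 for names and 0 for groups, while AATC passed (0.46, adjusted p = 0.0377). Libraries of the same number did not deviate together (correlations from -0.07 to 0.15), and not every library correlated best with its own number, so the titles' numbers were not taken as pairs. The depth limits the rare names, of which 619 were not tested.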
